A study of Populus deltoides with 12 samples.

Results

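In leaves of *Populus deltoides*, 123 of the 46170 genes in the expression tables were at least 2 log2 units higher in purple leaves of 'Quanhong' (QHP) than in green leaves of 'L2025', while they differed by less than 0.5 between the purple and the green leaves of 'Zhongshanyuan' (ZSY). The 123 genes were selected on these measured values, the group means of log2(FPKM + 1), with a mean of at least 10 FPKM in QHP as a further condition. FPKM is the number of fragments of a gene scaled to its length and to the size of the library. Only genes with a place in the deposited annotation were taken, and genes that the study lists as anthocyanin structural genes or in its networks of MYB and bHLH transcription factors were to be left out. Of 131 genes that met the values, 8 lay outside the annotation and 0 were in those lists. The last gene inside each limit had a difference of 2.002 between QHP and L2025, of 0.4997 between the ZSY leaves, and a mean of 10.3 FPKM in QHP. The first gene outside had 1.998, 0.51 and 9.99 FPKM.

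RNA-seq was performed on 12 libraries, 3 biological replicates in each of 4 groups, all from 2-year-old seedlings in the field of a botanical garden in Nanjing. P denotes the purple leaves of QHP and G the green leaves of L2025, both taken as the leaves at the fourth and the fifth place, fully expanded. F_P and F_G denote the purple and green leaves of ZSY, which were fully expanded leaves. For its anthocyanin measurements the study took leaves from the third to the fifth place in all cultivars. P and G differ in both cultivar and leaf color, which cannot be told apart in P vs. G, whereas F_P and F_G come from a single cultivar. The study describes QHP and ZSY as colored-leaf cultivars derived from L2025, and no transgene or treatment is named for any group. Whether the replicates come from separate plants is not given beyond their being independent, so the tests measure the spread between leaf samples.

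Purple leaf color in poplar comes from anthocyanins, flavonoid pigments that are made in the cytosol by enzymes of the phenylpropanoid and flavonoid pathways and stored in the vacuole. A gene that follows pigment in every cultivar would change in P vs. G and in F_P vs. F_G, and the genes described here did not do so by the way they were chosen. Cultivars also differ in the expression of genes outside pigment synthesis, for example of cell wall remodelling, carbohydrate binding or defense. ZSY therefore serves here as a reference, since its leaves show whether the level of P or the level of G is the one that stands apart.

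The library depth was 14543579 to 16628923 fragments assigned to annotated genes, recovered from FPKM and exon length. By the study's read statistics, a smaller share of clean reads mapped in every G library than in every P and F_P library. The F_G libraries lay on either side of G. The part of mapping in the low values of G was not tested. The antenna protein genes of the chloroplast, used as a check of leaf tissue (23 genes), were above 0 in every library. Their summed level was 20767 to 23791 FPKM in G, 6131 to 6557 in P, 9340 to 10910 in F_G and 7392 to 7604 in F_P, so that G stood above the others. The summed level of the study's 37 anthocyanin structural genes was 764 to 886 FPKM in G and 872 to 916 in F_G, against 1864 to 2082 in P and 2444 to 2523 in F_P, so that the sums of green and purple leaves lay apart. The study listed these genes as differing between these leaves, some of them lower in purple, so the sum is no independent check. The part of the differences in both sums in the values of the 123 genes was not tested. Rescaling by the median of ratios, which allows for a few very abundant genes, moved P minus G by a median of 2.3e-06 log2 units. The values thus hardly changed, the same 123 genes met the rule, and nothing is read from this. Scaling by library totals moved P minus G by a median of 0.17. With it, 160 genes met the rule, 118 of them of the 123.

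By the choice of the genes, P was above G in all 123, by 2.00 to 6.36 on the log2(FPKM + 1) scale with a median of 2.47, and 31 of them differed by at least 3. In P vs. G, limma with Benjamini-Hochberg adjustment called 122 of the 123 genes higher in P, beside 9.85% of all genes tested, from which nothing is read because the rule used this contrast. The median of the gene means was 28.1 FPKM in P, 3.77 in G, 26.9 in F_G and 27.4 in F_P. The ZSY leaves of both colors thus had a median close to P, and G was the group with the low median. The levels in P reached 670.5 FPKM, in a gene whose exons sum to 144 bases. In P, 13 genes had at least 100 FPKM, and in G, 19 genes had under 1 FPKM. In whole leaves, fewer cells of a type and less RNA per cell cannot be told apart.

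**Figure D1:**
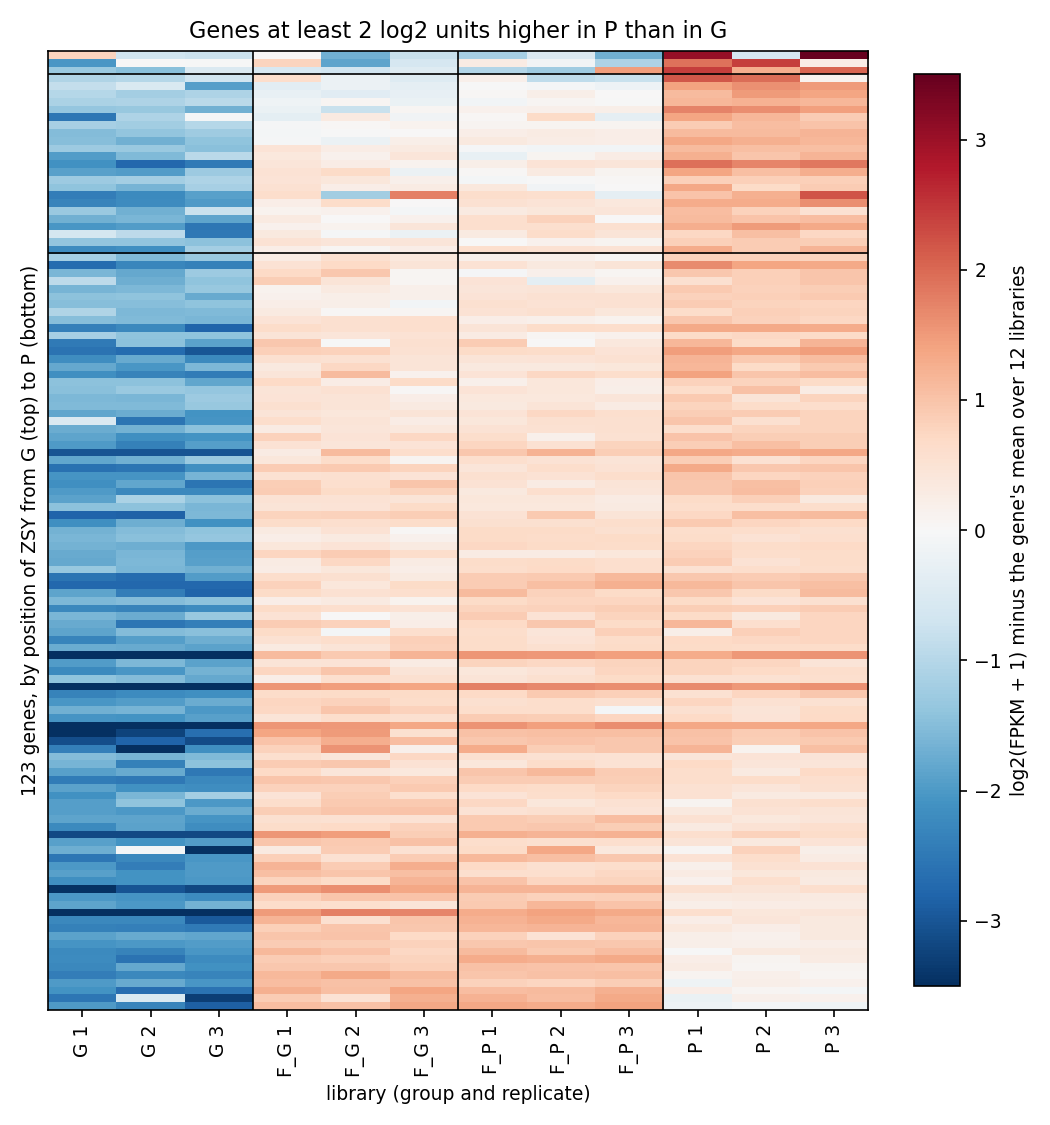
Level of each of the 123 genes (rows) in each of the 12 libraries (columns), as log2(FPKM + 1) minus the mean of the gene over the libraries, with colors ending at 3.5 in either direction. Rows are ordered by where ZSY lies between G and P, and the lines part the 3 genes at the top with ZSY near G, 23 in between and 97 with ZSY near P, in which the 3 G columns are the low ones.

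For each gene the place of ZSY between the other cultivars was given as the position, which is 0 where the mean of F_P and F_G equals G and 1 where it equals P. The median position was 0.93, with a range from -0.31 to 1.61. In 97 of the 123 genes (78.9%) the position was over 0.75, so that G was low beside ZSY. In 23 genes ZSY lay between, from 0.25 to 0.75, and in 3 genes the position was under 0.25, so that P was high beside ZSY. Near the upper limit, within 0.05, were 15 genes, and 2 were near the lower one. In the 97 genes L2025 was thus the cultivar farther from ZSY, and a level far above L2025 was not found in QHP alone. The study describes QHP and ZSY as derived from L2025. Whether the level fell in L2025 or rose in both other cultivars was not tested.

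Relative to the mean of ZSY, G was low, with a median of G minus ZSY of -2.47 log2 units (range -6.34 to 0.74). P minus ZSY had a median of 0.18 (range -1.38 to 3.12). Over all 28339 genes tested the medians were 0.01 for G minus ZSY and -0.0021 for P minus ZSY. The rule puts P at least 2 above G, so in each gene of the set these measures lie at least 2 apart. All genes tested were not chosen for this, so nothing is read from the distance to their medians. The minimum of 2 does not by itself set whether G or P lies farther from ZSY. Among genes with a difference between P and G of 3 or more, 26 of 31 had G low, and among those from 2 to 3, 71 of 92.

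**Figure D2:**
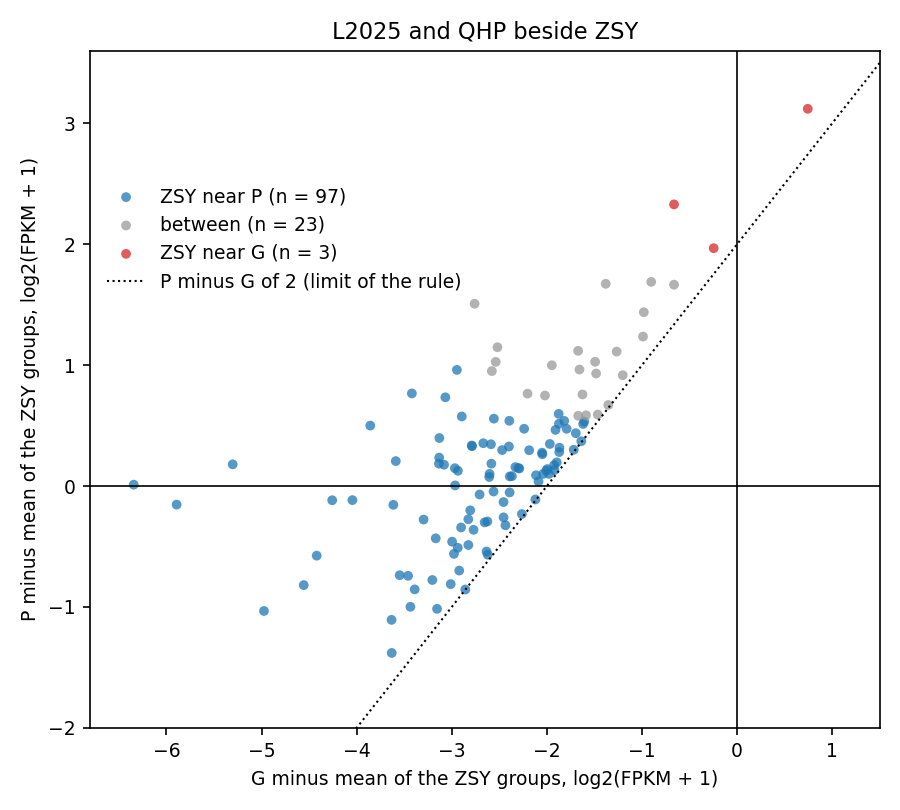
Each point is 1 of the 123 genes, with G minus the mean of the ZSY groups on the x axis and P minus the mean of the ZSY groups on the y axis, both in log2(FPKM + 1). The 97 genes with ZSY near P lie to the left, from -1.38 to 0.96 on the y axis. The 3 with ZSY near G lie at 1.97 or more on the y axis, while the dotted line is the limit of 2 set by the rule.

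The rule asks for P well above G, which favors a low G and a high P beside any other group, so the following counts describe the libraries and nothing is read from them. All 3 G libraries lay below all 6 ZSY libraries in 118 of the 123 genes, beside 19.9% of all genes tested. All 3 P libraries lay above all 6 ZSY libraries in 41 genes, beside 11.9% of all genes, and below all of them in 25 genes, beside 11.2%. In the remaining 57 genes the P libraries overlapped with ZSY. In 40 genes both held, with G below and P above ZSY. P was thus above, within or below the range of ZSY, depending on the gene.

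The contrast between the mean of F_P and F_G and the mean of P and G, here called the midpoint contrast, is orthogonal to both contrasts used by the rule and could be tested. The rule's minimum level in P is not covered by this. A value above 0 means that ZSY lies nearer to P than to G. It was above 0 in 115 of the 123 genes and below 0 in 8, with a median of 1.12 beside -0.03 over all genes tested. With limma on all 12 libraries, an adjusted p of at most 0.05 and a minimum of 1, ZSY was higher in 71 of the 123 genes, beside 4.62% of the 28339 genes tested. ZSY was lower in 1 of the 123, beside 5.11%. Without the minimum of 1, ZSY was higher in 111 of the 123, beside 26.0% of all genes. A gene with P minus G of at least 2 has a contrast of at least 1 in size where ZSY equals P or G. All genes tested were not chosen for such a difference, so their values are no like baseline. Nothing is read from the distance to them, and what the contrast adds is the direction of the calls. Position and midpoint contrast are made from the same group means, so all 71 genes are in the group with G low and this is no separate result.

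**Figure D3:**
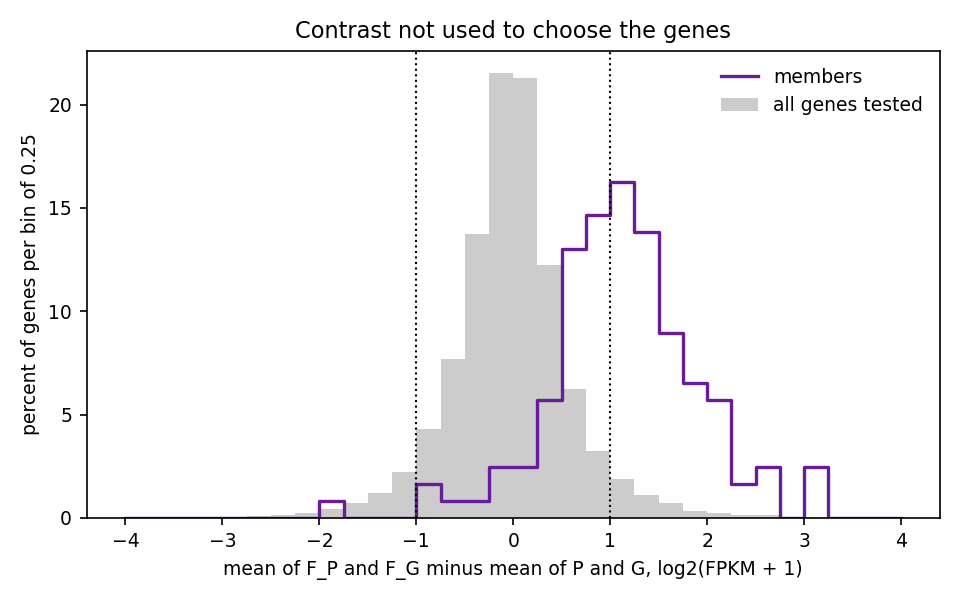
Percent of genes in bins of 0.25 of the midpoint contrast, the mean of F_P and F_G minus the mean of P and G in log2(FPKM + 1), for all 28339 genes tested (gray) and for the 123 genes (line). The 123 genes center on 1.12 and all genes on -0.03, and the dotted lines mark the minimum of 1 in each direction used for calls.

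Functions come from the GO terms and KEGG pathways that the study assigned to its DEGs, which cover 31 of the 123 genes, 25 with G low and 6 in between. The other 92 genes carry no function here. These assignments were made for genes that the study had already found to differ in these libraries, so they are not independent evidence for any direction. The midpoint contrast called 18 of the 31 genes higher in ZSY, beside 71 of the whole set of 123 and 4.62% of all genes tested. As far as the lists, which are cut short in the copy used, could be read, 5 genes are assigned to carbohydrate binding, 4 of which are also assigned to polysaccharide binding, and 4 to hydrolases of glycosyl bonds.

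Among genes of the cell wall and of sugar metabolism, Podel.19G098300 is assigned to amino sugar and nucleotide sugar metabolism, which supplies activated sugars for wall polymers, and to hydrolases of glycosyl bonds. It had 0 FPKM in all 3 G libraries and 15.6, 13.6 and 13.97 in P, with 30.1, 37.0 and 35.3 in F_G and 26.3, 28.5 and 27.0 in F_P. The mean of P, 14.4 FPKM, was at least 222-fold higher than G at a floor of 3 fragments over the 3 G libraries (0.0648 FPKM), and P in turn lay below every ZSY library. Podel.02G066100, assigned to glucan metabolism, glucosyltransferase activity and the cell wall, had 6.83, 7.69 and 4.98 FPKM in G and 104, 102 and 101 in P. Its ZSY levels were 63.9, 59.7 and 61.8 in F_G and 55.7, 63.3 and 62.8 in F_P, between the others and nearer to P (midpoint contrast 1.17 ± 0.08 SE, limma adjusted p = 1.3e-07). Here G lay below and P above every ZSY library.

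Podel.08G094600, assigned to starch and sucrose metabolism, the pathways that store and mobilise carbohydrate, and to hydrolases of glycosyl bonds, had 6.07, 5.81 and 7.16 FPKM in G and 58.3, 59.3 and 57.5 in P. It had 74.8, 72.9 and 67.6 in F_G and 70.4, 70.4 and 70.0 in F_P, so that P lay slightly below ZSY and G far below it (1.79 ± 0.05, limma adjusted p = 9.49e-11). A further gene of the same glucan and cell wall terms as Podel.02G066100, Podel.05G212200, had 2.54, 3.70 and 6.17 FPKM in G and 31.4, 26.2 and 30.6 in P. Its ZSY levels, 16.9, 14.3 and 17.5 in F_G and 10.4, 13.6 and 15.5 in F_P, lay about midway on the log scale (0.35 ± 0.15, limma adjusted p = 0.073), and the call was not made. The contrast was 0.23 (adjusted p = 0.159) without replicate 1 of G and 0.48 (adjusted p = 0.00371) without replicate 3 of G, each under the minimum of 1. Both genes of these terms had their highest level in P and their lowest in G.

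Proteins that bind carbohydrates include lectins, which recognise sugar chains on cell surfaces and walls. Podel.T139000 had 1.22, 0.835 and 0.844 FPKM in G and 16.0, 17.6 and 14.5 in P, with 15.3, 12.96 and 14.2 in F_G and 10.2, 12.4 and 10.8 in F_P. Podel.T160900 had 1.00, 0.975 and 1.26 in G and 12.7, 10.6 and 12.5 in P, with 10.5, 11.8 and 11.4 in F_G and 14.5, 14.3 and 13.2 in F_P. Podel.01G300400 had 1.45, 2.19 and 2.70 in G and 18.5, 19.0 and 19.5 in P, with 16.5, 17.4 and 20.6 in F_G and 17.9, 16.0 and 17.8 in F_P. In these 3 genes P overlapped with ZSY and G was the group apart, with midpoint contrasts of 1.23, 1.39 and 1.25 (limma adjusted p of 1.23e-07, 1.28e-08 and 4.09e-07).

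The remaining 2 genes of carbohydrate binding did not follow this pattern. Podel.17G008900 had 3.47, 2.93 and 3.73 FPKM in G and 31.2, 29.1 and 27.4 in P, while ZSY had 11.4, 9.95 and 13.7 in F_G and 15.1, 14.3 and 13.8 in F_P. Its ZSY level lay between, apart from both (0.28 ± 0.08, limma adjusted p = 0.0111, under the minimum of 1). Podel.04G196700, chosen for mention after its values were seen, had 5.22, 5.91 and 5.69 in G and 34.5, 36.1 and 33.6 in P, below the 70.6 to 82.4 in F_G and the 64.5 to 67.6 in F_P. In all 5 genes G was the lowest group, which the rule favors, while Podel.17G008900 had ZSY in between. P lay above, within or below the range of ZSY, depending on the gene.

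Podel.05G087200, assigned to copper ion binding, a property of redox enzymes among others, had 2.25, 3.38 and 2.93 FPKM in G, 50.8, 47.1 and 52.4 in P, 99.2, 109 and 88.9 in F_G and 80.0, 80.7 and 80.7 in F_P. P was below every ZSY library, with P minus ZSY of -0.82 in log2 units, and G minus ZSY was -4.56 (midpoint contrast 2.69 ± 0.07, limma adjusted p = 8.39e-11). Podel.T222100, of the autophagy pathway, by which cells deliver their own contents to the vacuole for breakdown, had 1.62, 0.541 and 0.721 in G, 18.9, 12.5 and 14.1 in P, 15.6, 14.7 and 9.45 in F_G and 13.5, 16.2 and 13.3 in F_P. Its P and ZSY libraries overlapped (1.40 ± 0.16, limma adjusted p = 1.33e-05). Its level in G rests on 28 fragments over the 3 libraries.

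Plant-pathogen interaction was the only KEGG pathway with at least 3 of the 123 genes. It covers immune receptors, calcium and MAP kinase signaling, and the transcription factors downstream of them. Podel.04G055600 had 6.01, 5.07 and 5.55 FPKM in G, 30.6, 33.4 and 32.2 in P, 53.1, 50.5 and 53.0 in F_G and 37.9, 38.5 and 41.7 in F_P. P was below every ZSY library, and F_P was below F_G by 0.40 of a log2 unit, within the limit of the rule. The midpoint contrast was 1.66 ± 0.05 (limma adjusted p = 1.64e-10).

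Podel.06G114400, also assigned to plant MAP kinase signaling and to sequence-specific DNA binding, had 7.44, 6.92 and 5.46 FPKM in G, 31.4, 31.9 and 32.7 in P, 25.6, 32.9 and 32.1 in F_G and 30.0, 32.1 and 35.0 in F_P. P and ZSY overlapped (1.03 ± 0.08, limma adjusted p = 5.17e-07). The call lies near the minimum of 1 and was lost, at 0.97 to 1.00, without replicate 2 of F_G, replicate 3 of F_P or replicate 3 of G, and at 0.97 with F_G alone in place of both ZSY groups. Podel.16G071000 had 10.7, 10.5 and 9.34 in G, 46.9, 47.0 and 46.5 in P, 41.5, 42.4 and 48.9 in F_G and 39.5, 39.2 and 37.7 in F_P (0.88 ± 0.05, limma adjusted p = 3.98e-08, under the minimum of 1). In all 3 genes of the pathway every G library was below every ZSY library. The same held in 118 of the 123 genes, beside 19.9% of all genes tested. The rule favors this, so nothing is read from it about the pathway.

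Over the 62 genes of plant-pathogen interaction that could be read, in a copy of the study's list that is cut short, 10 were called higher and 6 lower in ZSY by the midpoint contrast, beside 4.62% higher and 5.11% lower over all genes tested. Their median was 0.21, beside -0.03 over all genes tested. The 34 anthocyanin structural genes tested, none of which is in the set, had 4 calls higher and 5 lower in ZSY, beside the same shares, and a median of -0.10. The pathway list and the structural genes thus had calls in both directions, and they were chosen by the study on these libraries.

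Further genes with a function and a low G were looked up after their values were seen. Podel.13G005500, assigned to amino acid biosynthesis and to cysteine and methionine metabolism, was among the most abundant, with 48.0, 50.4 and 51.9 FPKM in G, 238, 231 and 243 in P, 382, 378 and 359.5 in F_G and 397, 405 and 396 in F_P. Podel.05G130800, of phenylpropanoid biosynthesis, the pathway that feeds both lignin and flavonoids, had 1.75, 1.62 and 2.14 in G, 12.4, 14.01 and 13.3 in P, 18.2, 19.7 and 20 in F_G and 13.98, 14.4 and 13.7 in F_P. Podel.15G085900, of nitrogen metabolism, had 2.28, 2.40 and 2.60 in G, 15.1, 20.7 and 16.9 in P, 24.0, 21.8 and 31.8 in F_G and 27.9, 23.3 and 23.7 in F_P. In all 3 genes G was the low group in both comparisons of cultivars, and the mean of P lay below the mean of ZSY (P minus ZSY of -0.70, -0.29 and -0.51).

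**Figure D4:**
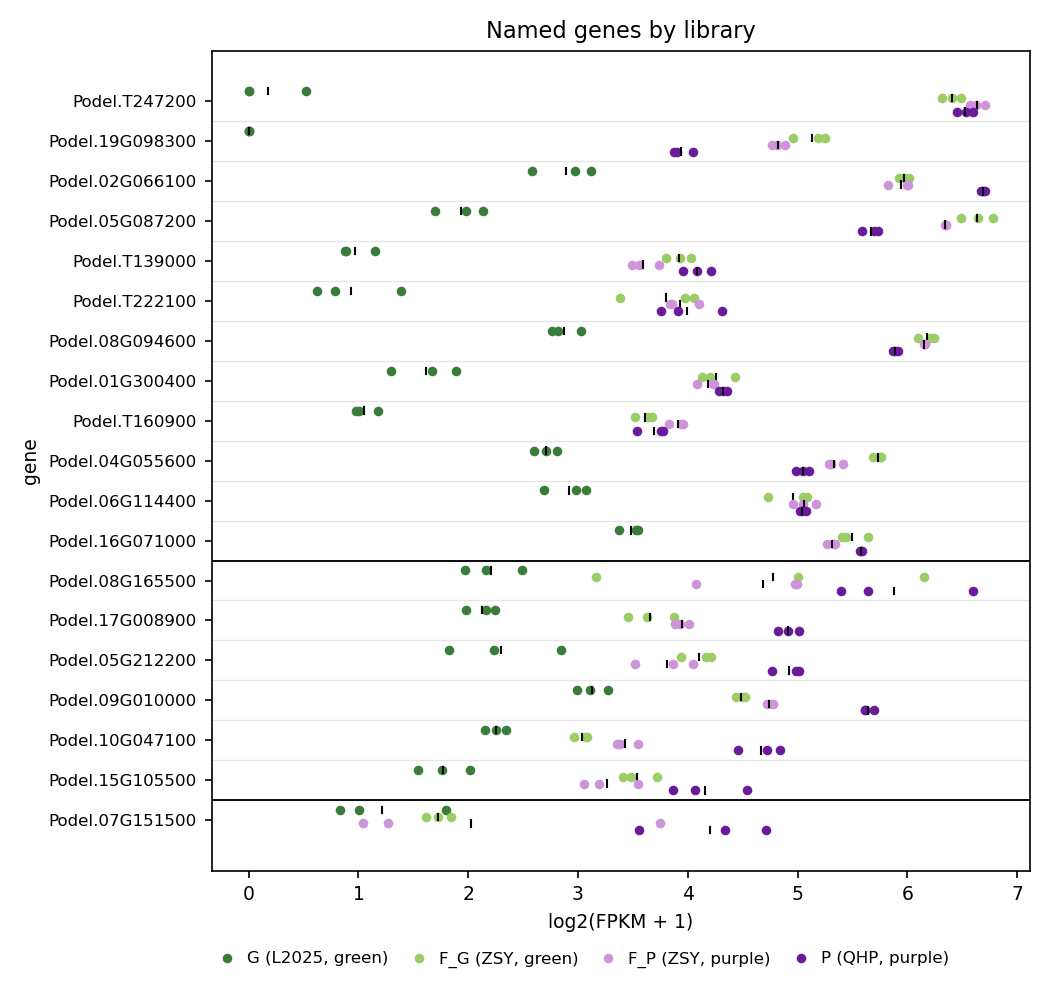
Level of the genes named by the fixed rule in each library, as log2(FPKM + 1), with 1 point per library and a black tick at the group mean. Above the first line are the genes with G low, for example Podel.T247200 with 0 to 0.438 FPKM in G, between the lines those with ZSY in between, and below the second line Podel.07G151500, the one with P high.

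Of the 23 genes with ZSY in between, 21 had all P libraries above all ZSY libraries. This compares with 41 of the 123 genes and 11.9% of all genes tested. A place in between with P well above G favors this, so nothing is read from the count. The 6 of these 23 genes with a function included Podel.09G010000, assigned to defense response, with 6.94, 7.64 and 8.64 FPKM in G, 48.1, 48.0 and 50.9 in P, 20.7, 21.6 and 22.03 in F_G and 25.4, 26.4 and 25.6 in F_P. Podel.10G047100, of protein processing in the endoplasmic reticulum, where secreted proteins are folded, had 4.07, 3.46 and 3.78 in G, 20.9, 27.6 and 25.3 in P, 7.46, 6.80 and 7.40 in F_G and 9.44, 10.7 and 9.24 in F_P. It was the one of the 6 with ZSY nearer to G, with a position of 0.41 and a midpoint contrast of -0.23 ± 0.08 (limma adjusted p = 0.0238, under the minimum of 1). Each of these genes showed 3 levels in the order G, ZSY and P without overlap.

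Podel.15G105500, of cutin, suberine and wax biosynthesis, the pathway of the lipid layer that covers the leaf, had 2.39, 1.92 and 3.04 FPKM in G, 22.3, 13.5 and 15.8 in P, 12.2, 9.60 and 10.2 in F_G and 10.7, 7.30 and 8.11 in F_P, also without overlap. Podel.08G165500, of the proteasome, which degrades proteins tagged with ubiquitin, was the most variable, with 2.93, 3.48 and 4.63 in G, 41.1, 48.8 and 95.9 in P, 31.0, 7.98 and 70.3 in F_G and 31.0, 30.5 and 15.9 in F_P. Its exons sum to 204 bases and its level in G rests on 33 fragments, and P overlapped with F_G. Its midpoint contrast was 0.69 ± 0.42 (limma adjusted p = 0.186), and it was 1.09 (adjusted p = 0.00692) without replicate 2 of F_G and 0.34 (adjusted p = 0.422) without replicate 3 of F_G.

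The gene of the set with the highest FPKM in P, Podel.10G109000, singled out after its values were seen and without a function here, also lay in between. It had 74.7, 71.9 and 117 FPKM in G, 736, 593 and 683 in P, 403, 449 and 245 in F_G and 293, 350.0 and 303 in F_P. Every P library was above every ZSY library and every G library below. Its exons sum to 144 bases, and so short a length raises FPKM for a given number of fragments. It had 5095 fragments over the P libraries, fewer than the 23242 of Podel.13G005500.

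The 3 genes with P high carry no function in the study's lists, and all 3 had an SD over 1 log2 unit in at least 1 group. In Podel.07G151500 the levels were 1.00, 0.784 and 2.47 FPKM in G, 25.2, 10.8 and 19.2 in P, 2.29, 2.06 and 2.59 in F_G and 1.41, 1.06 and 12.5 in F_P. One F_P library, at 12.5 FPKM, was above the lowest P library, at 10.8. The midpoint contrast was -0.83 ± 0.41 (limma adjusted p = 0.106), and without that library, replicate 3 of F_P, it was -1.26 (adjusted p = 0.000732).

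Podel.11G110700 had 1.04, 7.51 and 7.41 FPKM in G, 30.7, 44.4 and 9.12 in P, 13.5, 1.34 and 4.60 in F_G and 9.24, 6.68 and 2.98 in F_P, with overlap between P and ZSY (-0.86 ± 0.53, limma adjusted p = 0.193, and -0.54 without replicate 2 of F_G). Podel.11G080300 had 4.52, 0.965 and 0.918 in G, 25.6, 1.14 and 50.2 in P, 2.22, 0 and 0.887 in F_G and 0.426, 1.27 and 0 in F_P. It was the gene called lower in ZSY, at -1.93 ± 0.67 (limma adjusted p = 0.0275). The SD over its P libraries was 2.42 log2 units, its exons sum to 147 bases, and the call was lost without replicate 2 of F_G, replicate 3 of F_P, replicate 1 of G, replicate 1 of P or replicate 3 of P (adjusted p of 0.0608 to 0.0658). In none of the 3 genes were all P libraries above all ZSY libraries, so that the 3 genes with P high held none in which P stood apart from ZSY in every library.

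At the other end were genes with next to no transcript in G. No fragment was found in any G library for 4 genes, each of them called higher in ZSY. Beside Podel.19G098300 these were Podel.08G210300, Podel.13G043600 and Podel.18G130000, named after their values were seen and without a function here. Their P libraries had 12.2 to 13.6, 12.5 to 14.7 and 18.9 to 19.8 FPKM. The means of P, 12.9, 13.4 and 19.5 FPKM, were at least 182-fold, at least 56.6-fold and at least 163-fold higher than G at the floor of 3 fragments over the G libraries.

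Their ZSY libraries had 7.88 to 14.9, 15.4 to 25.2 and 8.93 to 17.8 FPKM, so that both leaf colors of ZSY held transcript as P did. The 4 genes do not set the medians of the set, which were 2.47 for P minus G and 1.12 for the midpoint contrast also with the floor in place of 0. The largest difference of all was that of Podel.T247200, likewise without a function, with 0, 0 and 0.438 FPKM in G (5 fragments), 96.0, 86.8 and 91.7 in P, 88.9, 83.6 and 78.7 in F_G and 103, 97.8 and 94.4 in F_P. Its P minus ZSY was 0.01 and its G minus ZSY -6.34 (midpoint contrast 3.17 ± 0.09, limma adjusted p = 8.42e-11).

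The spread between replicates was small beside these differences. The median SD over the 123 genes was 0.20 log2 units in G, 0.11 in P, 0.15 in F_G and 0.09 in F_P. An SD over 1 occurred in 10 genes, which were 3 of the 97 with G low, 4 of the 23 in between and all 3 with P high. Replicate 3 of G differed more from the other G libraries than these from each other, with a chi-square of fragments per gene of 10.4 in both pairs against 3.20. All pairs of F_G libraries were also far apart, at 6.22 to 9.19. The pairs within P had 3.43 to 6.17 and those within F_P 2.77 to 2.86. Without replicate 3 of G, 98 of the 123 genes had G low, and 69 were called higher in ZSY.

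The genes were spread over all 19 chromosomes, 20 of them on chromosome 1, 10 on chromosome 4 and 9 each on chromosomes 2 and 17, with 11 on unplaced scaffolds. Scaffolds held 8.94% of the set and 3.39% of the annotated genes tested. The median exon length was 1320 bases beside 1574 over the genes tested, the median number of exons 3 beside 4, and 17.9% had a single exon beside 14.5%. Directly next to another gene of the set were 8 of the 112 genes on chromosomes (7.14%), beside 0.508% of the other genes tested. With at most 5 genes between, there were 14 (12.5%, beside 2.95%), in 6 groups of which 5 were pairs. These shares are given without a test.

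The largest group lay on chromosome 4 between bases 1915031 and 1961476 in the coordinates of the deposited annotation. Its 4 genes on the plus strand, described after their values were seen, were Podel.04G025500, Podel.04G025700, Podel.04G026000 and Podel.04G026100, none with a function here. Podel.04G025700, with 2 exons, had 0.223, 0.358 and 0.113 FPKM in G, 64.6, 64.2 and 64.95 in P, 74.2, 72.5 and 64.96 in F_G and 75.3, 68.2 and 77.5 in F_P (midpoint contrast 3.02 ± 0.06, limma adjusted p = 1.19e-11). Podel.04G026000 had 13.6, 12.6 and 14.1 in G, 125, 121 and 126 in P, 109, 104 and 96.4 in F_G and 119, 120.4 and 125 in F_P. All 4 had G low, with positions of 0.83, 1.03, 0.95 and 0.93.

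The 3 genes between them were not alike. Podel.04G025600 had the same pattern, with means of 0.876 FPKM in G, 8.002 in P, 8.31 in F_G and 10.5 in F_P, and was outside the set because P was under 10 FPKM. Podel.04G025800 had 14.5, 18.9, 16.8 and 15.7 FPKM in the same order, without a low G. Podel.04G025900 was at 0 in all groups. A low G was thus seen in 5 of the 7 consecutive genes and not in Podel.04G025800, the other expressed gene.

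**Figure D5:**
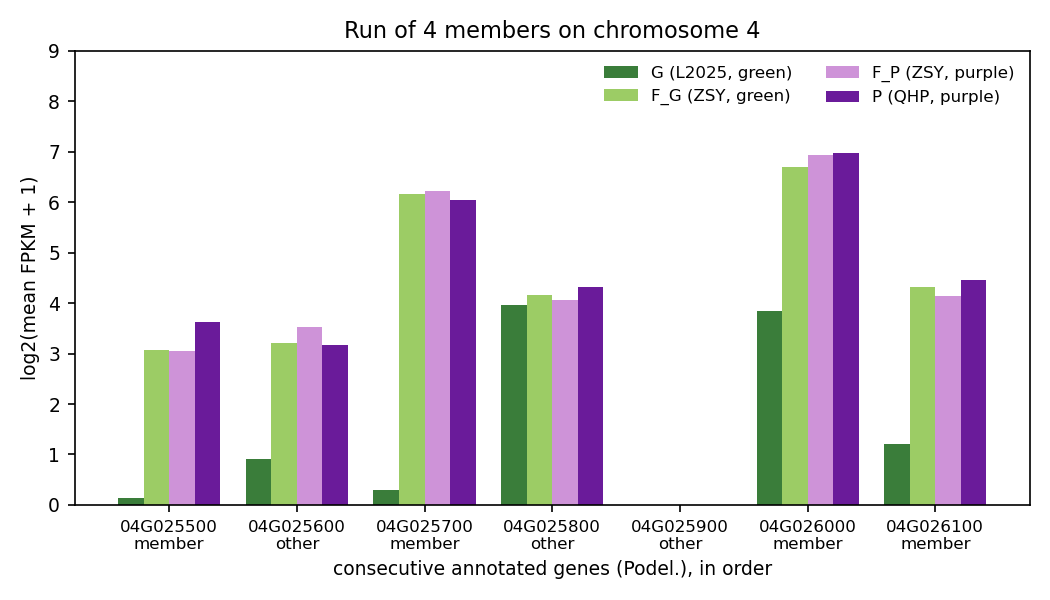
Mean level of 7 consecutive annotated genes on chromosome 4 in the 4 groups, as log2 of the mean FPKM plus 1, with bars from 0. The G bar is far below the other bars in the 4 genes of the set and in Podel.04G025600, not in Podel.04G025800, and Podel.04G025900 is at 0.

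Other genes were set beside the 123. Among 289 genes that met the same limits for P and G but differed by 0.5 or more between the ZSY leaves, 197 (68.2%) had the ZSY mean near P, 77 lay between and 15 (5.19%) had it near G. In the opposite direction, 155 genes were at least 2 log2 units lower in P than in G, with at least 10 FPKM in G and without a ZSY difference. Of these, 124 (80.0%) had ZSY near P, so that G was the high group, 28 lay between and 3 had ZSY near G. The share with ZSY near P was thus 78.9% in the set described here and 80.0% in its counterpart, and L2025 was the cultivar apart in most genes of both, which share all their libraries. These shares by position are given without a test. By the midpoint contrast, 149 of the 289 genes were called higher in ZSY and 7 lower. Of the 155 genes, 104 were called lower in ZSY and 2 higher. Calls were thus frequent in these sets as well, which were also chosen for a large difference between P and G.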

How the data were processed

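The authors mapped reads with HISAT2, assembled transcripts with StringTie and tested DEGs with DESeq (no versions given). FPKM per gene and library were deposited, with an annotation. The study's methods name an NCBI assembly of *P. deltoides* for mapping, the annotation itself names none, and coordinates are given as the annotation has them. FPKM times exon length gave whole fragments, within 0.02, for 100% of the values checked, but the library size behind the FPKM of the deposited files was 0.942 to 0.966 of the counted fragments in G and 1.08 to 1.09 in P. Tests used limma 3.58.1 (trend, Benjamini-Hochberg) in R 4.3.3 on log2(FPKM + 1), over the 28339 genes that reached 1 FPKM in 3 or more of the 12 libraries, and were tested on simulated data. Python 3.11.15, pandas 2.3.3 and numpy 2.4.6 handled the tables. Fold changes on this scale understate low genes.

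The genes and lists were chosen with earlier results of these data known. Genes named are, of those in the study's GO and KEGG lists (copies cut short), the 8 with the largest P minus G in each position class (G low, between, P high), up to 4 of each pathway with at least 3 of the genes, and of the others the largest with P high and with G low. Exceptions are stated. Alternatives were other scalings, pseudocounts, limits, leaving out each library, voom on fragments, and the replicate number as a block. Floors and counts of fragments cover counting error only. No sequences were used.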

Additional observations from a re-analysis of the deposited data

Results flagged for a closer look

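Outside the deposited annotation, 8 genes met the values of the same rule in the same 12 libraries and were left out because they have no position. Of these, 7 had G low beside ZSY, 1 lay between and 0 had P high, with positions from 0.50 to 1.72 and a median of 1.03. Their means were 0 to 5.75 FPKM in G and 10.9 to 51.0 in P. The midpoint contrast (limma) called 6 of them higher in ZSY, beside 4.62% of all genes tested. Chosen by the same rule from the same libraries, they are no independent evidence for the pattern. With 3 libraries in each group, single libraries far from the others were not searched for.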

How the results depend on the processing

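The number of genes that met the rule was 123, and followed its limits. It was 228 with P minus G of at least 1.5 and 59 with 2.5, 63 with a ZSY difference under 0.25 and 237 under 1, and 81 with at least 20 FPKM in P. Scaling by library totals moved P minus G of all genes by a median of 0.17, and 160 genes then met the rule, 118 of them of the 123, while 93 of the 123 had G low, 27 lay between and 3 had P high. Leaving out each library in turn gave 114 to 128 genes, 95 to 98 with G low, 22 to 26 between and 2 to 4 with P high. With limits of position at 1/3 and 2/3, 12 lay between, as the limits set.

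Of the 123 genes, 65 to 81 were called higher in ZSY under the alternatives that kept the minimum of 1 and 68 to 74 when each library was left out. Without the minimum, 111 were called higher and 2 lower. The single gene called lower was lost (0 called) with voom, with F_G alone and at an adjusted p of 0.01, and leaving out each library gave 0 to 1. Over all genes, 1310 were higher and 1448 lower, against 2174 and 2939 with a pseudocount of 0.1, 2118 and 2891 with voom, 2057 and 3195 with F_P alone, and 7366 and 8394 without the minimum, and 903 were lower with F_G alone. The causes were not tested beyond what the limits set. Same-numbered libraries of different groups correlated at -0.24 to 0.09 in their deviations, and 6 of 18 correlated best with their own number, so the numbers do not pair the libraries. With the replicate block, 71 of the 123 genes were called higher and 1 lower, and 1308 and 1447 of all genes. Of 28 genes named and followed through all alternatives, 19 stayed on their side of the threshold in each of them, and no called gene changed direction.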
